A study of Homo sapiens with 12 samples.

Results

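CREB and C/EBP transcription factors and the co-activators of CREB were followed on 12 microarrays of the human glioblastoma line U87, treated for 72 h. Of 10 listed genes, 9 had a transcript cluster that the annotation assigns to that gene alone, out of 21214 named clusters tested. They were CREB1, CREM, CREBBP, EP300, CRTC2, CEBPA, CEBPB, CEBPD and CEBPG, each with exactly 1 such cluster. ATF1 was also listed but had no cluster under this rule, and it was not analysed here. The question behind the list, taken from the study, was whether such factors act on the genes that respond to 3α-THP.

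The cells received 3α-THP (allopregnanolone) at 10 nM, P4 (progesterone) at 10 nM, F (finasteride) at 100 nM, or vehicle alone (V, DMSO at 0.1% in the sample characteristics, with a higher share in one protocol field of the labels). All 4 groups were the same unmodified line, and each had 3 arrays numbered 1 to 3, which the series describes as independent experiments. 3α-THP is made from P4 by reduction of the ring A double bond and then of the ketone in that ring, and F inhibits 5α-reductase, the enzyme of the first of these steps. F was given at another dose than the steroids, so its values stand beside theirs and only 3α-THP and P4 were compared directly. A single line limits all values to this model, and 3 arrays per treatment limit their precision.

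CREB binds the cAMP response element and becomes active when protein kinase A, the kinase switched on by cAMP, phosphorylates it. Phosphorylated CREB recruits the histone acetyltransferases CBP and p300, while CRTC proteins enter the nucleus after dephosphorylation and join CREB on DNA. C/EBP proteins are basic leucine zipper factors of differentiation, acute phase and stress genes, and C/EBPβ and C/EBPδ are known as drivers of the mesenchymal state in glioblastoma. The arrays measured mRNA, and neither phosphorylation nor the place of a protein in the cell was measured.

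The promoters of these genes were searched first, in the RefSeq windows (build GRCh38.p14) that run from 250 bases before to 50 bases after each annotated start. The letters searched, on both strands, were the full cAMP response element TGACGTCA, its shorter core TGACG, the C/EBP palindrome core TTGCGCAA and the looser C/EBP core TTGCNNAA, of which the palindrome is 1 form. Of 35116 windows of 27305 genes, 1.85% held the full element, 24.6% the short core, 0.151% the C/EBP palindrome core and 10.5% the looser core. Counted by gene, the shares with at least 1 such window were 2.25%, 28.4%, 0.172% and 12.7% in the same order. Windows were matched for 7 of the 9 genes, 16 windows in all, 7 of them of CREM. CRTC2 and CEBPD had no window and were not searched, and a match describes letters only.

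CREM is the member whose windows held the full element, in a pair of overlapping windows at internal starts. CREM encodes activators and repressors that bind the same element as CREB, and an internal promoter of CREM that answers to cAMP and gives the short repressor ICER is well known. The stretch before the second of these starts (chr10:35195752-35195901, plus strand) is shown because the full element, in capitals, begins 50 bases before that start.
CREM internal start: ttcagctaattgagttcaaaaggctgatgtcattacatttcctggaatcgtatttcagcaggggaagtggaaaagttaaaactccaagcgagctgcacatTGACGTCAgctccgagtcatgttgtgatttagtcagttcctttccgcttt

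Short cores stood in the windows of CREM, CREBBP and CEBPB. The CREM stretch (chr10:35127027-35127176, plus strand) belongs to an upstream start and holds short cores 178 and 68 bases before it. The CREBBP stretch (chr16:3880774-3880833, minus strand) holds short cores 97 and 81 bases before the start, and the CEBPB stretch (chr20:50190750-50190799, plus strand) holds 1 at 57 bases before it. Capitals mark the short cores.
CREM upstream start: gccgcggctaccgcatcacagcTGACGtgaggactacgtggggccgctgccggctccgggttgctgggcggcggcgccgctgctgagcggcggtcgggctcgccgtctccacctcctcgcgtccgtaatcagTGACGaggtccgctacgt
CREBBP: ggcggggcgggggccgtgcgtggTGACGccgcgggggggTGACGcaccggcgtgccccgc
CEBPB: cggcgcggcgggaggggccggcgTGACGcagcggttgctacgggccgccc

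The looser C/EBP core was found in the window of 1 member, CREB1 (chr2:207529802-207529851, plus strand), 134 bases before the start, and no member's window held the palindrome core. The core, in capitals, reads on the opposite strand.
CREB1: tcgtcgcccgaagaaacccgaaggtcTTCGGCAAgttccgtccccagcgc

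No member passed the study's threshold, which asked for more than a 1.5-fold difference in either direction and an unadjusted p under 0.05, with 3α-THP, P4 or F against V, or with 3α-THP against P4. Over all 21214 clusters, 0.679% passed it with 3α-THP, 0.0236% with P4, 0.396% with F and 0.25% between 3α-THP and P4. Without the minimum fold, 1 of the 9 members (11.1%) had an unadjusted p under 0.05 with 3α-THP, beside 7.34% of all clusters. For P4, F and the direct comparison of 3α-THP with P4 the count was 0 of 9, beside 1.82%, 4.69% and 3.96% of all clusters. When replicate number entered the fit as a block, the members' counts were the same, while the shares of all clusters were 13.4%, 3.8%, 8.54% and 9.0% in the 4 comparisons. The adjusted p over all clusters ran between 0.638 and 0.974 for the members with 3α-THP and was 0.999 or 1 in the other comparisons (limma, Benjamini-Hochberg). In such bulk RNA, fewer cells that express a gene and less RNA per cell cannot be told apart.

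**Figure D1:**
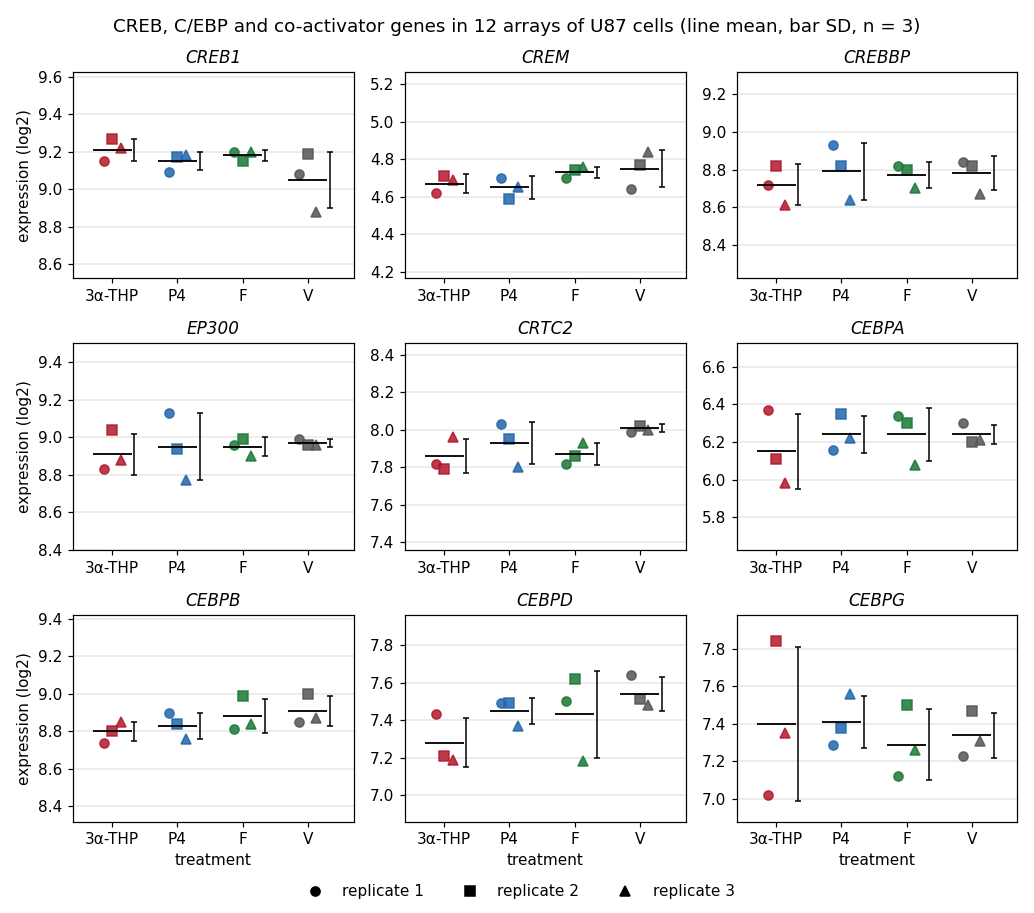
Expression of the 9 members (log2, vertical axes, each spanning 1.1 log2 units) in the 3 arrays of each treatment (3α-THP, P4, F, V on the horizontal axes), with symbols for replicate numbers, lines for means and bars for the SD. The 3α-THP arrays lie under all V arrays for CRTC2, CEBPB and CEBPD, as do the F arrays for CRTC2. The treatments overlap in the other panels.

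CREB1, the factor itself, read 9.15, 9.27 and 9.22 on the log2 scale in 3α-THP arrays, 9.09, 9.17 and 9.18 in P4 arrays, 9.20, 9.15 and 9.20 in F arrays, and 9.08, 9.19 and 8.88 in V arrays (replicates 1, 2 and 3 in each list of this kind). The V array of replicate 3 was the lowest of the 12, and the groups overlapped. The difference of 3α-THP minus V was 0.16 (SE 0.09, 95% interval -0.02 to 0.35, unadjusted p = 0.0822, adjusted p = 0.737, limma). Its size differed between the replicate numbers, with 0.07 and 0.08 in replicates 1 and 2 and 0.34 in replicate 3. Without V replicate 3 the difference was 0.08 (unadjusted p = 0.371), and without V replicate 2 it was 0.23 (unadjusted p = 0.023, adjusted p = 0.508, limma). P4 minus V was 0.10 (-0.09 to 0.29) and F minus V was 0.14 (-0.05 to 0.32). CREB1 was the member with the most positive difference with each of these 3 treatments, at most a 1.12-fold level, which did not pass the threshold. With array weights, which give less weight to arrays that fit poorly, CREB1 differed from V by 0.26 with 3α-THP (unadjusted p = 0.00859, adjusted p = 0.217, limma). It differed by 0.19 with P4 (unadjusted p = 0.0322, adjusted p = 0.835) and by 0.23 with F (unadjusted p = 0.011, adjusted p = 0.296, limma). Without V replicate 2 the difference with F was 0.20 (unadjusted p = 0.0411, adjusted p = 0.719, limma). After quantile normalization the unadjusted p with 3α-THP was 0.0414.

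CREM read 4.62, 4.71 and 4.69 with 3α-THP, 4.70, 4.59 and 4.65 with P4, 4.70, 4.74 and 4.76 with F, and 4.64, 4.77 and 4.84 with V. The groups overlapped, and the 12 arrays spanned 0.25. Its transcript cluster summarises the gene, so that ICER was not measured apart from the longer forms. The differences from V were -0.08 (95% interval -0.24 to 0.09) with 3α-THP, -0.10 (-0.27 to 0.07) with P4 and -0.02 (-0.18 to 0.15) with F. CREM and CEBPA are the 2 members whose mean lay under the median of all tested clusters, 6.37, and the deposited table holds no detection call.

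The acetyltransferases CREBBP (CBP) and EP300 (p300), which many factors besides CREB share, did not pass the test with any treatment. CREBBP read 8.72, 8.82 and 8.61 with 3α-THP, 8.93, 8.82 and 8.64 with P4, 8.82, 8.80 and 8.70 with F, and 8.84, 8.82 and 8.67 with V. In every treatment the array of replicate 3 was the lowest. EP300 read 8.83, 9.04 and 8.88 with 3α-THP, 9.13, 8.94 and 8.77 with P4, 8.96, 8.99 and 8.90 with F, and 8.99, 8.96 and 8.96 with V. The V arrays of EP300 lay within the range of each steroid group or at its edge. The means differed by at most 0.08 between treatments for CREBBP and by 0.05 for EP300, against pooled within-treatment SDs of 0.108 and 0.109. The 95% intervals of 3α-THP minus V ran between -0.27 and 0.15 for CREBBP and between -0.26 and 0.15 for EP300.

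CRTC2, the cAMP-sensing co-activator of CREB known best from liver glucose metabolism, read 7.82, 7.79 and 7.96 with 3α-THP, 8.03, 7.95 and 7.80 with P4, 7.82, 7.86 and 7.93 with F, and 7.99, 8.02 and 8.00 with V. All 3α-THP arrays and all F arrays lay under the V arrays, and the P4 arrays spanned both ranges. The difference from V was -0.15 with 3α-THP (SE 0.08, 95% interval -0.33 to 0.03, adjusted p = 0.756) and -0.14 with F (-0.31 to 0.04, adjusted p = 0.999, limma). Without 3α-THP replicate 3 the unadjusted p with 3α-THP was 0.045. The 3 V arrays had an SD of 0.02, beside a pooled within-treatment SD of 0.0788.

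CEBPD, which encodes C/EBPδ, read 7.43, 7.21 and 7.19 with 3α-THP, 7.49, 7.49 and 7.37 with P4, 7.50, 7.62 and 7.18 with F, and 7.64, 7.51 and 7.48 with V. All 3α-THP arrays lay under all V arrays, and within the replicate numbers the difference was -0.21, -0.30 and -0.28. The difference of 3α-THP minus V was -0.26 (SE 0.11, 95% interval -0.51 to -0.02), a level of 0.833 of that in V. Its unadjusted p was 0.0368 and its adjusted p 0.638 (limma), and with the replicate number as a block these were 0.0111 and 0.225. The unadjusted p was 0.12 without V replicate 1, 0.0521 without V replicate 2, 0.098 without 3α-THP replicate 2 and 0.114 without 3α-THP replicate 3, and it was 0.0576 after quantile normalization and 0.0534 in the methods' analysis of variance. P4 minus V was -0.09 (-0.34 to 0.15) and F minus V was -0.11 (-0.35 to 0.14), and the F array of replicate 3 was the lowest of the 12.

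CEBPB encodes C/EBPβ, which forms dimers with C/EBPδ. It read 8.74, 8.80 and 8.85 with 3α-THP, 8.90, 8.84 and 8.76 with P4, 8.81, 8.99 and 8.84 with F, and 8.85, 9.00 and 8.87 with V. The highest 3α-THP array lay just under the lowest V array (both 8.85 when rounded), and the other groups overlapped. The difference of 3α-THP minus V was -0.11 (SE 0.08, 95% interval -0.29 to 0.07, adjusted p = 0.84, limma), with -0.08 for P4 and -0.03 for F.

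CEBPA encodes C/EBPα, a factor of myeloid, fat and liver differentiation. It read 6.37, 6.11 and 5.98 with 3α-THP, 6.16, 6.35 and 6.22 with P4, 6.34, 6.30 and 6.08 with F, and 6.30, 6.20 and 6.21 with V. The 3α-THP arrays held both the highest and the lowest of the 12 values. The difference from V was -0.08 (95% interval -0.32 to 0.15) with 3α-THP, 0.01 (-0.23 to 0.24) with P4 and 0.01 (-0.23 to 0.24) with F.

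CEBPG encodes C/EBPγ, a widely expressed partner that works with ATF4 in the amino acid stress response. It read 7.02, 7.84 and 7.35 with 3α-THP, 7.29, 7.38 and 7.56 with P4, 7.12, 7.50 and 7.26 with F, and 7.23, 7.47 and 7.31 with V. The 3α-THP group held the lowest and the highest array of the 12, 0.82 apart, the widest range among the members. The difference from V was 0.06 (95% interval -0.31 to 0.44) with 3α-THP, 0.07 (-0.30 to 0.45) with P4 and -0.04 (-0.41 to 0.33) with F.

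**Figure D2:**
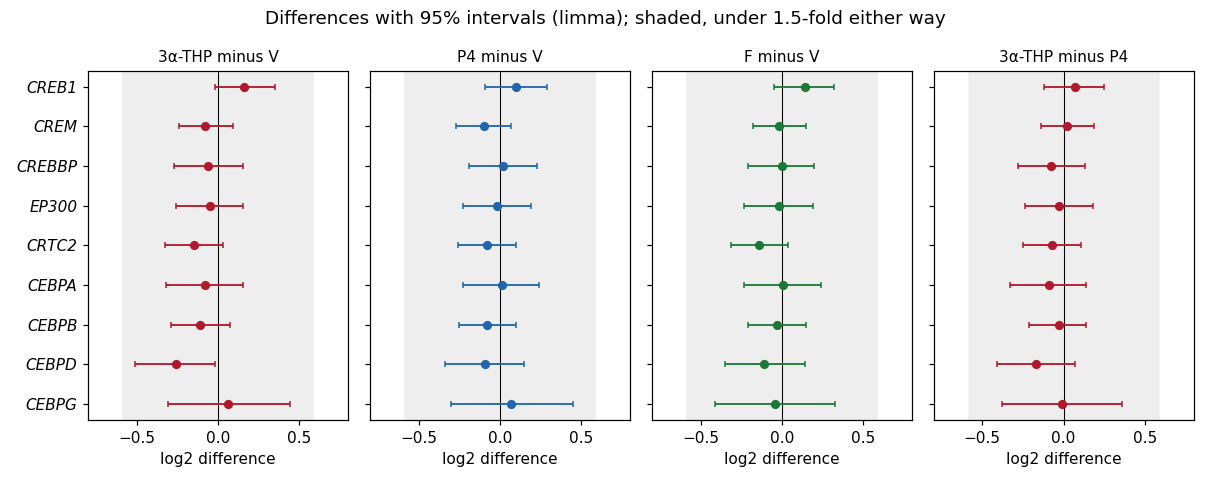
Log2 differences of the 9 members (rows) for 3α-THP, P4 and F against V and for 3α-THP against P4. Bars are 95% intervals (limma without a block for replicate number, n = 3 arrays per treatment). The shaded band marks differences under 1.5-fold, and all intervals lie inside it.

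The interval of the difference stayed inside 1.5-fold in both directions for 9 of 9 members in each of the 4 comparisons, 36 intervals in all. Over all tested clusters this was so for 92.2% with 3α-THP, 95.1% with P4, 93.4% with F and 93.2% between 3α-THP and P4. The intervals reached 0.17 to either side of the difference for the most precise member, CREM, and 0.37 for the least precise, CEBPG. A difference smaller than this reach has an interval that includes 0. These intervals come from the unpaired fit, and with the replicate block that of CEBPG with 3α-THP was -0.20 to 0.32.

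With 3α-THP, 3 of 9 members (33.3%) had arrays that did not overlap with the V arrays, CRTC2, CEBPB and CEBPD, all of them lower. Over all clusters 11.3% did not overlap in either direction and 7.28% did so with the lower values under 3α-THP. With F it was 1 of 9, CRTC2 (11.1%), beside 9.11% in either direction and 5.51% lower. With P4, and between 3α-THP and P4, it was 0 of 9, beside 5.44% and 8.22%. The genes are few and were not chosen as a sample of all genes, so these shares were not tested. The comparisons with V also share its 3 arrays.

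The median difference over the 9 members was -0.08 with 3α-THP, -0.02 with P4, -0.02 with F and -0.03 between 3α-THP and P4, and over all tested clusters it was -0.03, -0.01, -0.02 and -0.01 in the same order. CREB1 and CEBPG were the 2 members with a positive difference with 3α-THP (22.2%), beside 41.1% of all clusters.

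In the direct comparison at the same dose, 3α-THP and P4 differ by the reduced ring A, and no member differed between them at the threshold. Differences of 3α-THP minus P4 ran between -0.17 for CEBPD (95% interval -0.41 to 0.07, adjusted p = 0.999, limma) and 0.07 for CREB1 (-0.12 to 0.25). CEBPD was lower with 3α-THP than with P4 in all 3 replicate numbers, by -0.05, -0.28 and -0.18, and the groups overlapped. For CRTC2 the sign turned between replicate numbers, with -0.21, -0.17 and 0.16.

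**Figure D3:**
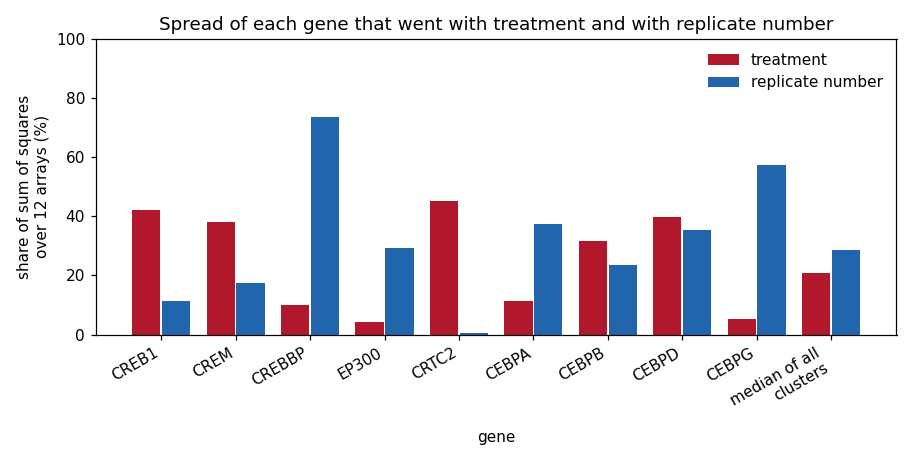
Share of each gene's sum of squares over the 12 arrays (%, vertical axis) that went with treatment (left bar of each pair) and with replicate number (right bar), with the median over all tested clusters at the right. CREBBP and CEBPG followed the replicate number most, and CRTC2 hardly at all (0.684%).

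The members varied along different lines. The replicate number took 73.5% of the sum of squares of CREBBP, 57.3% of that of CEBPG and 37.5% of that of CEBPA, beside a median of 28.7% over all clusters. For CRTC2 it took 0.684% and for CREB1 11.2%, while treatment took 45.2% and 42.3%, beside a median of 20.7%. In CEBPG the arrays of replicate 2 averaged 7.55 over the treatments, against 7.17 for replicate 1 and 7.37 for replicate 3. These shares describe the spread and carry no test, and treatment has 1 more group than replicate number.

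Members did not move as a block. Over the 36 pairs of members, Pearson's r across the 12 arrays ran between -0.52, for CREB1 with CRTC2, and 0.82, for CREBBP with EP300, with a median of 0.175, and 21 pairs were positive. After the replicate means were removed the median was 0.025 and CREB1 with CEBPD was the lowest pair at -0.71. All arrays were normalized together and each r rests on 12 arrays in 4 treatments, so r is given as a description.

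Among 18416 genes with a cluster of their own, those whose pattern over the 12 arrays came closest to CREB1 were BBX (r = 0.941), ERBIN (0.936) and SREK1 (0.935). EP300 was followed most closely by KMT2D (0.936), which encodes another chromatin enzyme, a histone methyltransferase. CREBBP was closest to FLOT2 (0.943), and this r was 0.816 once replicate means were removed. For CEBPD the closest was OAZ2 (0.922), for CEBPB RER1 (0.942), for CEBPA RSPO2 (0.970), for CEBPG BZW2 (0.927), for CRTC2 RPS18P9 (0.945) and for CREM GLRB (0.875). Each is the highest of many values.

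The pathway around the members was read in 7 lists of genes, and no gene of these lists passed the threshold in any of the 4 comparisons. Of other CREB and ATF family genes 17 of 18 were measured, with differences between -0.15 and 0.14 under 3α-THP, between -0.10 and 0.16 under P4, and between -0.24 and 0.18 under F. The 2 smallest p with 3α-THP belonged to CREBL2 (-0.13) and CREB3L1 (-0.15), those with P4 to BATF (0.16) and CREB3L4 (0.13), and those with F to BATF2 (-0.19) and ATF5 (-0.24).

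Among 7 of 7 other C/EBP genes and dimer partners, CEBPZ had the largest difference. CEBPZ carries a C/EBP name but encodes a nucleolar protein of ribosome assembly. It read 6.08, 6.46 and 6.43 with 3α-THP, 5.82, 5.99 and 6.15 with P4, 6.04, 6.21 and 6.31 with F, and 5.80, 6.14 and 5.68 with V. Within each replicate number the 3α-THP array was higher than the V array, while the groups overlapped through replicates 1 and 2. The difference was 0.45 with 3α-THP (SE 0.14, unadjusted p = 0.00732, adjusted p = 0.513, limma) and 0.31 with F (adjusted p = 0.999), both under the minimum fold. DDIT3, the stress-induced partner CHOP, followed with 0.25 (unadjusted p = 0.261). Of the related circadian factors, HLF stood at 0.20 with P4 and TEF at 0.18 with F, and CEBPZ at 0.11 with P4.

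Of other co-activators and partners of CREB, CBP and p300, 14 of 15 were measured and 2 had a positive difference with 3α-THP, with a median of -0.04. EID1, an inhibitor of p300 and CBP, read 8.96, 9.01 and 9.09 with 3α-THP and 9.26, 9.17 and 9.14 with V. These arrays did not overlap, and the difference was -0.17 (unadjusted p = 0.0414, adjusted p = 0.663, limma). CITED2, another protein that binds p300, differed by -0.24 (unadjusted p = 0.0872). The smallest p with P4 were those of CITED4 (-0.16) and NCOA2 (-0.11), a nuclear receptor co-activator, and with F those of EID1 (-0.09) and NONO (0.10).

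All 36 genes of cAMP and protein kinase A were measured, and their medians were -0.03 with 3α-THP, -0.02 with P4 and -0.01 with F. With 3α-THP the 2 smallest p belonged to PKIG and PKIB, which encode inhibitors of protein kinase A, while the third inhibitor gene, PKIA, stood at -0.08 (unadjusted p = 0.344). PKIB read 4.22, 4.01 and 4.18 with 3α-THP, 4.26, 4.04 and 4.37 with P4, 3.90, 4.03 and 3.98 with F, and 3.98, 3.74 and 3.95 with V. The 3α-THP and P4 arrays lay above all V arrays, and the values were low on this platform. The differences were 0.25 with 3α-THP (adjusted p = 0.63) and 0.33 with P4 (unadjusted p = 0.00653, adjusted p = 1, limma). PKIG went the other way, with 7.27, 6.95 and 7.20 with 3α-THP against 7.41, 7.24 and 7.68 with V, a difference of -0.30 (adjusted p = 0.62) between groups that overlapped. With P4 the next smallest p was that of the cAMP phosphodiesterase PDE4D (-0.18), and with F the smallest were those of ADCY2 (-0.19) and PKIG (-0.20).

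ADCY3, an adenylyl cyclase that makes cAMP, had the largest difference of that list with 3α-THP, and was named after its values were seen. It read 7.90, 7.50 and 7.29 with 3α-THP, 8.03, 7.81 and 7.39 with P4, 7.94, 7.82 and 7.31 with F, and 8.08, 8.10 and 7.60 with V. In each replicate number the V array was the highest, and the groups overlapped. The difference of 3α-THP minus V was -0.37, with an unadjusted p of 0.109 (adjusted p = 0.769, limma), and of 0.000925 with a block for replicate number.

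Among kinases and phosphatases of CREB and CRTC, 19 of 20 were measured and differences ran between -0.25 and 0.20 with 3α-THP. CAMKK2, which activates the CaM kinases that phosphorylate CREB, stood at -0.25 (unadjusted p = 0.0504), and RPS6KA5, the CREB kinase MSK1, at 0.20 (unadjusted p = 0.0809). With P4 the smallest p were those of SIK3 (0.10), a kinase that holds CRTC in the cytoplasm, and CAMK1D (0.12). With F the smallest p in this list were those of STK11 (-0.18), the upstream kinase LKB1, and RPS6KA5 (0.20).

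Genes known to respond to cAMP and CREB gave 29 of 32 measured, with medians of -0.01 with 3α-THP, -0.01 with P4 and -0.06 with F. JUNB, an immediate early gene, read 8.56, 8.47 and 8.47 with 3α-THP, 8.80, 8.84 and 8.58 with P4, 8.51, 8.52 and 8.55 with F, and 8.71, 8.66 and 8.74 with V. The 3α-THP and F arrays lay under all V arrays, and the 3α-THP arrays also lay under all P4 arrays. The differences were -0.21 for 3α-THP minus V (adjusted p = 0.614), -0.18 for F minus V (adjusted p = 0.999) and -0.24 for 3α-THP minus P4 (adjusted p = 0.999, limma). RGS2, a cAMP-induced regulator of G protein signalling, differed by -0.23 with 3α-THP (unadjusted p = 0.0614), and FOSB by -0.26 with F (unadjusted p = 0.0497). With P4 the smallest p were those of PDE4D (-0.18) and GEM (-0.23), a small GTPase. Of the textbook targets FOS and NR4A1, named after their values were seen, FOS differed by -0.13, -0.03 and -0.10 with 3α-THP, P4 and F, and NR4A1 by 0.01, 0.03 and -0.05.

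Genes known to respond to C/EBP were all measured, 24 of 24, with medians of -0.01, -0.04 and -0.05 with 3α-THP, P4 and F. SAA1, an acute phase gene, read 3.56, 3.30 and 3.08 with 3α-THP, 3.63, 3.90 and 3.39 with P4, 3.63, 4.01 and 3.19 with F, and 3.64, 4.44 and 3.54 with V. The groups overlapped, the V array of replicate 2 was far above the others, and SAA1 is nearly identical to SAA2, so the probes may not separate them. The difference of SAA1 with 3α-THP was -0.56 (SE 0.25, unadjusted p = 0.0406, adjusted p = 0.658, limma) and that of SAA2 was -0.51. SCD, a fatty acid desaturase, differed by -0.22 with 3α-THP (unadjusted p = 0.0631). The smallest p with P4 were those of FABP4 (-0.11) and PTX3 (-0.12), and with F those of HP (0.30) and SAA2 (-0.38).

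**Figure D4:**
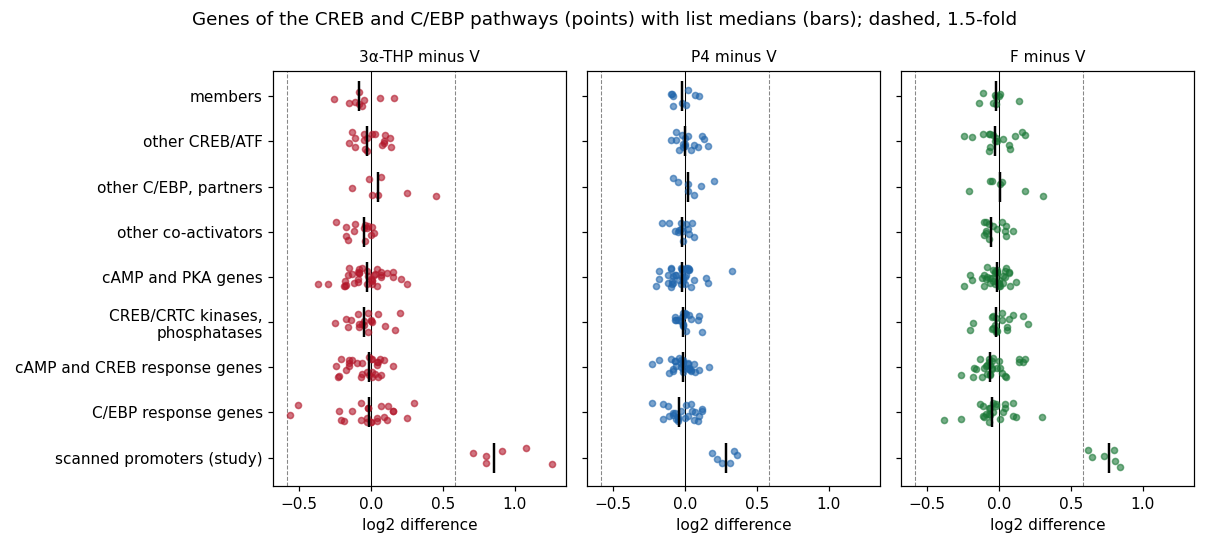
Log2 differences (horizontal axes) of the members and of the genes of each list (points), with list medians (bars) and 1.5-fold (dashed lines), for 3α-THP, P4 and F against V. The points of the 7 pathway lists lie inside the dashed lines, and the 6 genes whose promoters the study scanned lie to the right of them with 3α-THP and F.

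The study scanned the promoters of 6 genes for factor sites, among them DYNC2H1, ESF1, REV3L and RIF1. The study took candidates from these same arrays and scanned those that it reports as raised by 3α-THP in RT-qPCR. Their direction on the arrays is therefore no independent evidence, and the RT-qPCR was not re-analysed here. All 6 passed the threshold upward with 3α-THP and with F, 0 of 6 with P4, and 3 of 6 between 3α-THP and P4. For REV3L and RIF1 the study's own array analysis lists no change with F. Their median differences were 0.85 with 3α-THP, 0.29 with P4 and 0.77 with F, beside those of -0.08, -0.02 and -0.02 for the 9 factors and co-activators.

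In the RefSeq windows of these 6 genes, 8 windows in all, no full element and no palindrome core was found. The study used prediction tools with matrix scores, over promoter and adjacent regulatory regions. Exact letters in windows of 300 bases therefore do not test the sites that it predicted. The short core was found in ESF1, a nucleolar gene, and in RIF1, a gene of DNA break repair. Among the hits reported here, the looser C/EBP core was also found in RIF1. The stretches are shown because the study's question turns on these promoters, with ESF1 at chr20:13784920-13784969 on the minus strand and RIF1 at chr2:151409712-151409771 on the plus strand. Capitals mark the short core in ESF1 and the looser C/EBP core and then the short core in RIF1, and all but the short core of RIF1 read on the opposite strand.
ESF1: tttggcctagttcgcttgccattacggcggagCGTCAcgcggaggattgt
RIF1: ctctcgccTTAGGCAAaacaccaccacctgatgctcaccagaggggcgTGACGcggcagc

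Over the genes on the array with a RefSeq window, 442 held the full cAMP response element and 13797 did not. With 3α-THP, 3 of the 442 passed the threshold (0.679%), all upward, beside 0.725% of the genes without the element, and the median differences were -0.034 and -0.030. The 3 genes were BDP1, a subunit of an RNA polymerase III factor (0.71), CENPE, a kinetochore motor (1.00), and TMF1, a Golgi protein (0.62). With F, BDP1 (0.59) and TMF1 (0.60) passed, which is 0.452% with the element beside 0.391% without it. With P4, 0 of 442 passed, beside 0.0217%. Between 3α-THP and P4, CENPE passed (0.96), which is 0.226% beside 0.254%. For the short core, held by 5003 genes with a window and not by 9236, the shares past the threshold were 0.78% with it and 0.693% without it for 3α-THP, 0% and 0.0325% for P4, 0.40% and 0.39% for F, and 0.36% and 0.195% between 3α-THP and P4. None of these shares was tested.

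**Figure D5:**
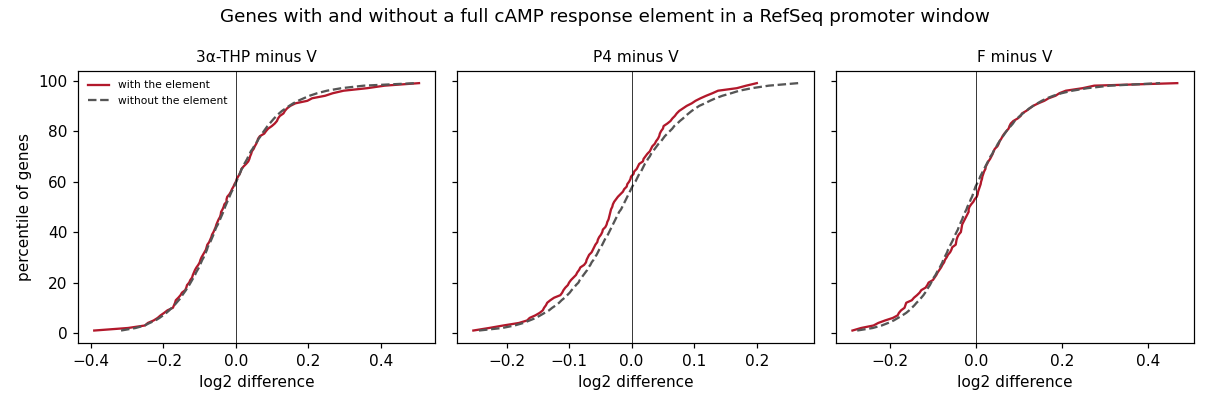
Percentiles of genes (1 to 99, vertical axis) by log2 difference (horizontal axes, scaled per panel) for 442 genes with the full element and 13797 without it, for 3α-THP, P4 and F against V. The medians with and without the element are -0.034 and -0.030 with 3α-THP, -0.031 and -0.015 with P4, and -0.015 and -0.020 with F. With 3α-THP the curves read 0.41 and 0.353 at percentile 98, and 0.505 and 0.497 at percentile 99. These gaps were not tested.

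The palindrome core was held by 40 genes with a window. Of these, 1 passed the threshold with 3α-THP, 1 with F and 1 between 3α-THP and P4, in each case 2.5% of so few genes. Among those without it the shares were 0.718%, 0.387% and 0.246%. With P4, 0 of 40 passed, beside 0.0211%.

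The arrays were alike in level, with medians of the tested clusters between 6.35 and 6.40 on each. The 8 mesenchymal glioblastoma markers averaged between 5.96 and 13.16, with FN1, VIM and CD44 at 13.16, 12.49 and 11.85. The lowest of them, at 5.96, lay under the median of all tested clusters, 6.37. Of the astrocyte markers SLC1A3 averaged 9.47, while GFAP averaged 6.17, S100B 3.77 and AQP4 2.93, all under the median of all tested clusters, 6.37. No gene of the 7 marker lists passed the threshold in any comparison. The neuron markers, 5 of 5 measured, averaged between 4.02 and 8.62, with SNAP25 the highest. Their differences from V ran between -0.23 and 0.33, with RBFOX3 at 0.33 with P4 (unadjusted p = 0.00842) and at 0.33 with F (unadjusted p = 0.00772), and SYT1 at 0.31 with 3α-THP (unadjusted p = 0.0226, adjusted p = 0.611, limma). The part of such RNA in the members' values was not tested. The oligodendrocyte, endothelial and epithelial markers differed from V by -0.13 to 0.12. The leukocyte markers, 5 of 6 measured, averaged between 2.95 and 5.27, and their differences from V ran between -0.08 and 0.02.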

How the data were processed

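Per the labels, the authors made the deposited log2 values with Affymetrix Expression Console 1.4 from Human Gene 1.0 ST arrays, 1 value per transcript cluster. The normalization of the table is not given in the sources used here. The study's methods name quantile normalization and an unpaired analysis of variance with a fold over 1.5 and p under 0.05. Values run from 1.25 to 14.1. Of 33297 clusters, 21214 carry a gene name and were fitted with limma 3.58.1 (R 4.3.3), 1 mean per treatment over all 12 arrays, with Benjamini-Hochberg adjustment over the tested clusters. Members were read from the cluster annotated to that gene alone. The members, lists and motifs were chosen with earlier results of these data known. All members are named, and, apart from results not reported here, of each list the genes past the threshold and those with the 2 smallest p per comparison with V. Replicate numbers were checked for pairing by the correlation of deviations from treatment means. In 18 pairs of arrays with the same number it ran from 0.132 to 0.631 (median 0.4). In 36 pairs with different numbers it ran from -0.604 to 0.226 (median -0.245), so the ranges overlapped. Deviations within a treatment cancel out, so the medians are not independent. On this evidence from the data, the numbers pair the arrays. Unless a block is named, intervals and p values come from the unpaired fit, as in the study's methods, and leave this pairing out. Gene symbols of 19429 of 19460 clusters with 1 gene matched the RefSeq table. Promoter sequences are from RefSeq. Some results of the scanned genes are not reported here.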

Additional observations from a re-analysis of the deposited data

How the results depend on the processing

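No member passed the threshold under any alternative that kept the minimum fold. With an unadjusted p alone, 1 member passed with 3α-THP (CEBPD). Which members had such a p with 3α-THP depended on the setting. No member had one in the methods' analysis of variance, without V replicate 1, or without 3α-THP replicate 2. The same held without replicate number 2, where CEBPD stood at 0.0978 (limma). The member was CREB1 with quantile normalization (0.0414, with CEBPD at 0.0576) and without V replicate 2 (0.023, with CEBPD at 0.0521). Both had such a p with array weights (0.00859 for CREB1), and CRTC2 without 3α-THP replicate 3 (0.045). CREB1 also had such a p with P4 (0.0322) and F (0.011) with array weights, and with F without V replicate 2 (0.0411, limma). With the replicate block, 0 members passed the threshold in each comparison. CEBPD was again the 1 member with an unadjusted p under 0.05 with 3α-THP (0.0111, limma). Every treatment has each replicate number, so the block cannot change a difference, and the median over the members with 3α-THP was -0.076 by design. The share of all clusters with an unadjusted p under 0.05 was 13.4% with the block. With 1 array left out in turn, the median over the members ran from -0.113 to -0.034 with 3α-THP, from -0.112 (without P4 replicate 1) to -0.003 with P4, from -0.058 to 0.004 with F, and from -0.104 (without P4 replicate 3) to -0.006 for 3α-THP minus P4. Without replicate number 2 signs turned for CEBPG with 3α-THP (-0.09), CEBPA with P4 (-0.06) and F (-0.04), and CREM for 3α-THP minus P4 (-0.03). Signs also turned with 1 array left out: CEBPG with 3α-THP (-0.15 to 0.26), F (-0.15 to 0.04) and for 3α-THP minus P4 (-0.23 to 0.18). The others were CEBPA with P4 (-0.05 to 0.05) and F (-0.04 to 0.09), CREBBP with P4 (-0.05 to 0.10), EP300 with P4 (-0.11 to 0.07) and for 3α-THP minus P4 (-0.12 to 0.06), CEBPB with F (-0.08 to 0.02), CREM with F (-0.07 to 0.03) and for 3α-THP minus P4 (-0.01 to 0.05), CREBBP with F (-0.06 to 0.03), and CEBPD with F (-0.20 to 0.02). The cause was not tested. CEBPD with 3α-THP ran from -0.34 to -0.21 over all alternatives, with adjusted p of 0.225 or more. CREM and CEBPA were left out where dim clusters were. A mean over several clusters per gene gave no value, since each member has 1 cluster.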
